A study of Mus musculus with 4 samples.

Results

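Layer 6 corticothalamic neurons were picked out of single-nucleus RNA profiles of mouse brain by the counts of 9 genes. A nucleus entered the group when it held at least 1 unique molecular identifier (UMI, the count of a captured RNA molecule) of Slc17a7, none of Gad1 or Gad2, at least 3 of Foxp2, at least 1 each of Tle4 and Syt6, at most 1 of Tcf7l2 and none of Ctgf or Rxfp1. Slc17a7 is the vesicular glutamate transporter of cortical excitatory neurons, Gad1 and Gad2 make GABA, Foxp2 and Tle4 are a transcription factor and a corepressor of deep layer neurons, Tcf7l2 marks the thalamus and Ctgf marks layer 6b. The gate held 1426 nuclei, which were 2.74% of the 52132 nuclei that passed quality filters and 7.32% of the 19491 nuclei with Slc17a7 and without Gad1 or Gad2, called Slc17a7 nuclei below. They are called corticothalamic nuclei here.

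The brains came from female C57/BL6 mice aged 2 months that received no treatment, 2 of them wild type (WT) and 2 Csf1r+/- (HET), with 1 library for each mouse. Csf1r encodes the receptor for CSF-1 and IL-34 on which microglia depend, and the comparison asked how its partial loss alters the cells of the brain. The loss is in the germline. No cell type driver is involved, so that the neurons carry the same genotype as the microglia. The detergent-free preparation from perfused brain included a step that removed myelin debris.

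Corticothalamic neurons are glutamatergic pyramidal cells of layer 6 whose axons run from the cortex to the thalamus and give off branches in the layers above. They adjust how strongly thalamic relay cells and cortical neurons answer sensory input. Their identity is set during development by transcription factors that include Tbr1, Sox5 and Tle4, which hold back the programs of other deep layer projection neurons.

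Values for single libraries are given in the order WT replicates 1 and 2 and HET replicates 1 and 2. These libraries supplied 338, 359, 333 and 396 corticothalamic nuclei with 3428176, 3014296, 4080854 and 4385569 UMIs in all, and a median of 9013, 7043, 10319 and 9647.5 UMIs per nucleus. The whole libraries held 112226479, 89727416, 89436507 and 89799327 UMIs in 16415, 16301, 9905 and 11369 nuclei. Between 33 and 68 barcodes were shared by any pair of libraries, of 9589 to 16114 nuclei kept in each. WT replicate 2 stood apart from the other libraries before any comparison. Its corticothalamic nuclei had a median of 0.462% mitochondrial UMIs against 0.113%, 0.195% and 0.124%, and markers of oligodendrocytes summed to 335 CPM (UMIs of a gene scaled to a common library total) there against 91.3, 114 and 67.5 CPM.

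Csf1r was looked at first in nuclei with at least 3 UMIs over 7 other microglia genes, since HET mice carry 1 working copy. These 230, 279, 227 and 240 nuclei held 236 and 221 CPM of Csf1r in WT and 163 and 107 CPM in HET libraries. Both HET libraries lay below both WT libraries.

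The corticothalamic gate made up a larger part of the Slc17a7 nuclei in HET than in WT libraries as deposited, and the order did not hold once depth was made equal. The share was 6.40% and 7.13% in WT and 8.0% and 7.91% in HET libraries, with means of 6.76% ± 0.516 and 7.95% ± 0.0646 (SD, n = 2 each). All HET libraries lay above both WT libraries (difference 1.19 percentage points; exact permutation, two-sided, p = 0.333, and 2 against 2 libraries allow none smaller). When each nucleus was thinned to 5000 UMIs, and shallower nuclei were left out, the shares were 5.35%, 5.63%, 4.92% and 5.30%, and the difference of HET from WT was -0.378 points (exact permutation p = 0.333). At 3000 UMIs they were 2.01%, 2.97%, 2.77% and 2.28% (difference 0.0354 points, exact permutation p = 1). The gate rests on minimum counts, and the median UMIs of the Slc17a7 nuclei outside it were 7550.5, 6348, 10141 and 8267, higher in both HET libraries than in either WT library. Of all kept nuclei, the gate took 2.10%, 2.35%, 3.47% and 3.54%, while Slc17a7 nuclei took 32.8%, 33.0%, 43.4% and 44.8%.

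**Figure D1:**
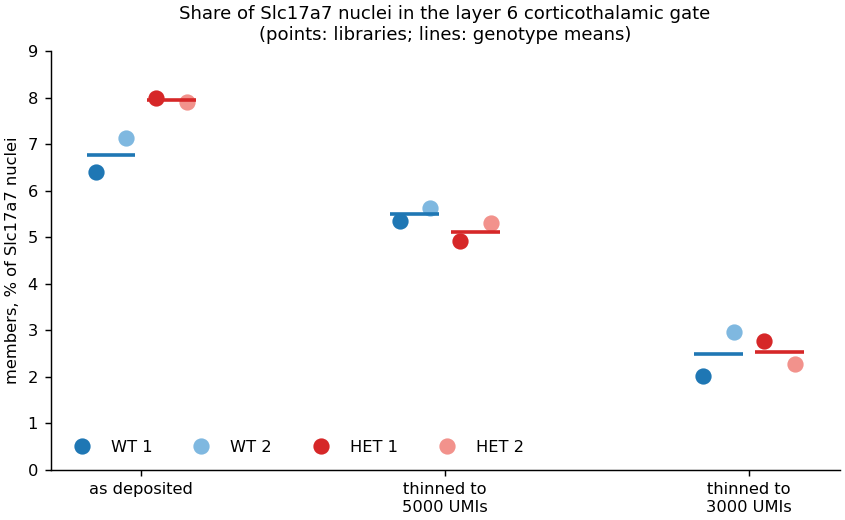
Share of Slc17a7 nuclei that passed the corticothalamic gate (vertical axis, percent) in each of the 4 libraries, as deposited and after thinning to 5000 or 3000 UMIs. Points are libraries and lines are genotype means; the HET libraries lie above both WT libraries (8.0% and 7.91% against 6.40% and 7.13%) only in the unthinned counts.

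The genes that chose the nuclei are given as a description. Foxp2 reached 1051, 956, 1039 and 995 CPM, with 10.7, 8.03, 12.7 and 11.0 UMIs per nucleus. Tle4 stood at 663, 624, 519 and 576 CPM, and Syt6, a synaptotagmin, at 171, 247, 209 and 184 CPM. The Syt6 condition removed most: without it another 371, 229, 172 and 301 nuclei would have entered. At the Foxp2 threshold, the nuclei just inside with 3 Foxp2 UMIs (27, 42, 13 and 34) had a median of 16, 22, 22 and 17 UMIs of Hs3st4, and the nuclei just outside with 2 (27, 31, 19 and 18) had 13, 19, 17 and 17.5.

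Hs3st4 was looked at beside the label, since it marks the same neurons and took no part in the gate. It cannot tell them from layer 6b nuclei, where its level was higher, as given below. Nuclei that met the other conditions with 0 Foxp2 UMIs carried it in 96.3%, 88.2%, 88.9% and 100% of cases. Hs3st4 encodes a heparan sulfate sulfotransferase and was the most abundant of the 15 corticothalamic markers outside the gate. Its RNA was found in 100%, 99.7%, 99.7% and 99.5% of corticothalamic nuclei, against 75.1%, 71.3%, 69.3% and 72.0% of the other Slc17a7 nuclei, and at a common depth of 5000 UMIs in 99.7%, 100%, 99.7% and 99.2% against 69.3%, 67.4%, 61.9% and 64.9%. Its level was 3470, 3414, 2945 and 3302 CPM in corticothalamic nuclei and 1075, 1038, 734 and 932 CPM in the others, with no overlap. Ntsr1, the neurotensin receptor used to mark these cells genetically, was rare and did not pass the 10% detection filter: at 5000 UMIs it was seen in 4.30%, 4.64%, 5.75% and 2.82% of corticothalamic nuclei and in 2.68%, 2.13%, 2.42% and 2.02% of the others.

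Other genes led the nuclei with Hs3st4. Among 3672 genes detected in at least 25% of corticothalamic nuclei in every library, the 20 with the highest ratio to all other Slc17a7 nuclei were headed by Arhgap25, a GTPase-activating protein (5.67-fold), the carboxypeptidase gene Cpa6 (5.31-fold), the collagen gene Col12a1 (4.42-fold), Ptk7 and Sema5a, a semaphorin. The transcription factor genes Zfpm2 (3.86-fold) and Nfia (3.59-fold), the glycine receptor subunit Glra2, the sulfatase Sulf1, the cadherin Cdh18 and the semaphorin receptor Nrp1 stood further down. These ratios describe a group chosen by its own counts, so no test goes with them. Across 16 sums (4 excitatory gates in 4 libraries), the levels that followed Foxp2 most closely were those of Slc35f1 (Pearson r = 0.981), Col12a1 (0.973), Rap1gds1 (0.958), Cntnap4 (0.957), Rell1 (0.954), Esrrg (0.952), Zfpm2 (0.951) and the gate gene Tle4 (0.950), among 10607 genes. The sums of 1 library share its depth and RNA. The gates also fix Foxp2 in 8 of the 16, at 3 or more UMIs per nucleus in corticothalamic nuclei and at 0 in the Cux2 gate described next, so these values restate in large part how the 2 gates differ.

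Other excitatory gates of the same libraries, 3 in number, served as comparisons. The layer 6b gate (Ctgf or Cplx3 present and at least 3 UMIs of Ctgf, Cplx3 and Nxph4 together) held 96 nuclei with 19 to 27 per library. The Tshz2 and Vwc2l gate (at least 5 and 1 UMIs, with at most 1 of Cux2), drawn up for layer 5 near-projecting neurons, held 1073 nuclei with 209 to 314 per library, and its levels of Rora, Ntng1 and Slc17a6, which are also thalamic genes, were higher than in corticothalamic nuclei, so that it is named by its genes here. The Cux2 gate for upper layer neurons (at least 3 UMIs of Cux2, none of Foxp2 and at most 1 each of Rorb and Prox1) held 1441 nuclei with 285 to 455 per library. UMIs were summed per library and compared within libraries by edgeR's quasi-likelihood test with Benjamini-Hochberg adjustment, gate genes left out. The sets were chosen by counts of the same nuclei, so the tests say how repeatable a difference was over 4 libraries. A gene called higher or lower had an adjusted p under 0.05, as had 6.99% and 7.81% of 8655 genes against layer 6b, 14.6% and 16.3% of 8122 against Tshz2 and Vwc2l and 17.3% and 20.5% of 8575 against Cux2 nuclei. The filter asked for detection in 10% of the nuclei of either gate, so a gene detected so in 1 gate alone entered through the gate where it was high. The counts of listed genes below therefore cover genes detected in 10% of nuclei of both gates, of which 6.62% were higher and 6.84% lower against layer 6b, 14% and 14.7% against Tshz2 and Vwc2l, and 17.2% and 17.5% against Cux2 nuclei.

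Corticothalamic markers outside the gate were higher in corticothalamic nuclei than in Cux2 nuclei in 9 of 9 cases (median log2 fold change 2.83, against 0.03 over all genes counted), where 17.2% of all genes were higher. Against Tshz2 and Vwc2l nuclei 9 of 10 were higher and 1 was lower (median 1.0, against -0.02), beside 14% and 14.7% of all genes. Against layer 6b nuclei 4 of 11 were higher and 4 lower (median 0.013, against 0.0059), beside 6.62% and 6.84%. Ntsr1 and Ppp1r1b did not pass the detection filter in these comparisons.

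The 4 markers above layer 6b were Garnl3, Zfpm2, Sox5 and Bcl11b. Crym and Rprm were also higher and had entered through corticothalamic nuclei alone. Crym, a thyroid hormone binding protein gene, had 47.3, 40.8, 54.2 and 43.1 CPM in corticothalamic nuclei and a mean of 3.60 ± 3.24 CPM (SD, n = 4) in layer 6b nuclei (log2 fold change 3.71, SE 0.46, edgeR adjusted p = 6.7e-07). Zfpm2, a cofactor of GATA factors, had 1819, 1605, 1635 and 1835 CPM against 982 ± 174 CPM (0.79, SE 0.10). Every library placed both genes higher in corticothalamic nuclei. Rprm, a cell cycle inhibitor gene used as a layer 6 marker, had 14.0, 15.3, 11.3 and 18.5 CPM and no UMI among the 1171843 of layer 6b nuclei, where 3 UMIs over the whole gate would be 2.56 CPM, so that it was at least 5.76-fold higher. The 4 markers below layer 6b were Sulf1 (-0.68), Thsd7b (-0.55), Grik3 (-0.45) and Hs3st4 (-0.26, SE 0.09, edgeR adjusted p = 0.045). Tbr1, Sla and Fezf2 did not pass the test there (0.33, 0.01 and -0.36).

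Fezf2, a selector gene of subcerebral projection neurons, was the only marker below Tshz2 and Vwc2l nuclei. It had 9.63, 14.6, 16.9 and 9.12 CPM in corticothalamic nuclei against 24.4 ± 6.61 CPM (log2 fold change -0.92, SE 0.17, edgeR adjusted p = 0.00054). Tbr1, the T-box factor that specifies corticothalamic identity, had 35.9, 31.5, 39.0 and 38.5 CPM, against 16.7 ± 5.88 CPM in Tshz2 and Vwc2l nuclei (1.12, SE 0.14) and 14.7 ± 2.5 CPM in Cux2 nuclei (1.28, SE 0.12). Fezf2 was above its Cux2 gate level of 0.728 ± 0.223 CPM (4.05, SE 0.27), a comparison it entered through corticothalamic nuclei alone.

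**Figure D2:**
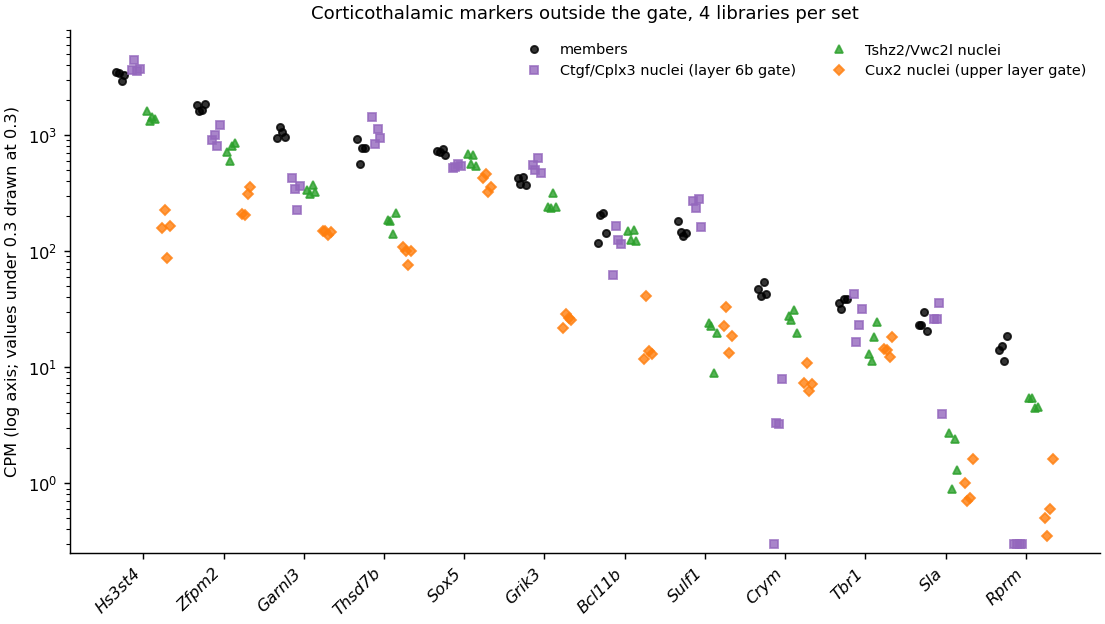
Level of 12 corticothalamic markers that took no part in the gate (vertical axis, CPM on a log scale; values under 0.3 drawn at 0.3), with a point for each of the 4 libraries in corticothalamic nuclei (members), layer 6b gate, Tshz2 and Vwc2l gate and Cux2 gate. Each marker lies above its Cux2 gate level in corticothalamic nuclei, while Hs3st4, Thsd7b, Grik3 and Sulf1 average higher in the layer 6b gate and Rprm has no UMI there.

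Markers of the other layers are given by their values, since most of them entered through the gate they mark. Inpp4b, detected in 10% of nuclei of both gates, was lower in corticothalamic than in layer 6b nuclei (-3.77). The other 4 layer 6b markers entered through layer 6b nuclei alone: Moxd1 had 0.583, 0.332, 0 and 0.684 CPM against 122 ± 33.8 CPM (-8.06, SE 0.35), and Svil (-6.12), Nr4a2 (-3.17) and Drd1 (-2.67) were called as well. Of the upper layer markers, Rasgrf2 (-3.46), Cux1 (-2.33) and Lamp5 (-1.99) were detected in both gates and lower than in Cux2 nuclei, while Otof (-3.75) and Calb1 (-3.61) entered through Cux2 nuclei alone. All 3 layer 5 markers detected in both gates were lower than in Tshz2 and Vwc2l nuclei, where 14.7% of all genes were, among them Etv1 (23.0, 26.2, 16.7 and 31.5 CPM against 228 ± 39.9 CPM; -3.19, SE 0.10). Trhr, the receptor for thyrotropin-releasing hormone (-3.20), entered through Tshz2 and Vwc2l nuclei alone and Npr3 (0.75) through corticothalamic nuclei alone.

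Transcription factors of deep layers separated the gates unevenly. Of 16 counted, 10 were higher and 4 lower than in Cux2 nuclei (17.2% and 17.5% of all genes), and of 17 counted, 9 were higher and 4 lower than in Tshz2 and Vwc2l nuclei (14% and 14.7%) and 7 higher and 4 lower than in layer 6b nuclei (6.62% and 6.84%). Nfia, a nuclear factor I gene, had 732, 543, 591 and 597 CPM, against 96.5 ± 14.3 CPM in Tshz2 and Vwc2l nuclei (2.71, SE 0.08) and 69.2 ± 16.9 CPM in Cux2 nuclei (3.14, SE 0.11). Its level did not pass the test against layer 6b (0.23, edgeR adjusted p = 0.16). Its relative Nfib was higher than in Tshz2 and Vwc2l nuclei (1.31) and Cux2 nuclei (1.62) and lower than in layer 6b nuclei (-0.40).

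The genes that differed most from each gate were named by a fixed rule. Above layer 6b these were Cpa6 (152, 140, 104 and 131 CPM against 3.27 ± 2.68 CPM, with a log2 fold change of 5.21, SE 0.35), Cemip, Serinc2, Tmem196, the ephrin receptor Ephb1 (3.60), the cadherin Cdh9 (3.37), Iqgap2 and the GABA-B receptor auxiliary subunit Kctd8. Below it were Moxd1, Olfr111 (5 UMIs in corticothalamic nuclei and 103 in layer 6b nuclei), Svil, the F-box gene Fbxl7 (-5.82), Adgrg6, Tmem163 and the unnamed loci AC124490.1 and Gm2516. Above Tshz2 and Vwc2l nuclei stood Arhgap25 (82.8, 102, 134 and 65.7 CPM against 7.29 ± 0.989 CPM; 3.75, SE 0.13), Gm10635, Sulf1 (3.07), Nfia, Serinc2, Cpa6 (2.41), 3110035E14Rik and Ddah1, an enzyme that breaks down dimethylarginine. Below them were Gm26883, Sntb1 (-4.50), the potassium channel partner Kcnip1 (-3.74), the neurexophilin Nxph1 (-3.42), Grik1 (-3.34), Etv1, Gm2164 and the serotonin receptor Htr2c (-3.11). Above Cux2 nuclei stood Gm10635 (138, 149, 151 and 111 CPM against 0.748 ± 0.922 CPM; 7.81, SE 0.22), Arhgap25 (5.54), Col12a1 (4.70), Hs3st4 (4.39), Glra2 (4.08), Grik3 (3.93), Htr1f (3.49) and Rai14, and below them Ccbe1 (-4.26), Pparg, Calb1, Smoc2, Syt17, Rasgrf2, Synpr and Man1c1. Against layer 6b, Ephb1, Cdh9 and Iqgap2 were detected in 10% of nuclei of both gates. Against Tshz2 and Vwc2l nuclei this held for Nfia, 3110035E14Rik, Nxph1, Grik1, Etv1 and Htr2c. Against Cux2 nuclei it held for Hs3st4, Grik3, Htr1f and Rasgrf2. The remaining named cases entered through the gate where they were higher alone. All 48 kept their direction and their side of the threshold in every setting tried. They had been picked for large changes of the same direction in 4 libraries, which largely fixed this.

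Glutamate receptors also split by gene. Of 19 counted, 8 were higher and 6 lower than in Cux2 nuclei (17.2% and 17.5% of all genes), and of 20 counted, 12 were higher and 6 lower than in Tshz2 and Vwc2l nuclei (14% and 14.7%) and 8 higher and 1 lower than in layer 6b nuclei (6.62% and 6.84%), with medians of 0.12, 0.31 and 0.30. Grm8, a presynaptic metabotropic receptor, had 1467, 1155, 1356 and 1267 CPM and was higher than in all 3 gates (363 ± 50.7, 999.7 ± 80.9 and 477 ± 39.2 CPM in layer 6b, Tshz2 and Vwc2l and Cux2 nuclei; log2 fold changes 1.82, 0.42 and 1.41). Grm7, of the same receptor group, had 1510, 1355, 1348 and 1621 CPM against 3348 ± 101 CPM in Tshz2 and Vwc2l nuclei (-1.17) and 3059 ± 236 CPM in Cux2 nuclei (-1.12). The kainate receptor gene Grik3 had 431, 381, 434 and 369 CPM against 25.7 ± 3.04 CPM in Cux2 nuclei (3.93, SE 0.09), while its AMPA receptor relative Gria4 was lower than in Cux2 (-0.98) and Tshz2 and Vwc2l nuclei (-0.74) and higher than in layer 6b nuclei (0.73).

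Among 13 GABA receptor genes tested, Gabbr2, a GABA-B subunit, was higher than in layer 6b (1.06) and in Tshz2 and Vwc2l nuclei (0.99) and did not pass the test against Cux2 nuclei (0.12). Gabra2, a GABA-A subunit, was higher than in layer 6b (1.12) and lower than in Tshz2 and Vwc2l (-0.70) and Cux2 nuclei (-1.68). The list held 5 higher and 2 lower genes against layer 6b, 6 and 1 against Tshz2 and Vwc2l, and 3 and 3 against Cux2 nuclei. Beside these stand 6.62% and 6.84%, 14% and 14.7%, and 17.2% and 17.5% of all genes, so that the 3 and 3 of 13 lie near the share of all genes.

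Receptors for modulators differed by gene. Htr1f, a serotonin receptor that couples to inhibitory G proteins, had 648, 551, 519 and 569 CPM and was higher than in every gate (309 ± 48.3, 175 ± 19.6 and 52.4 ± 23.8 CPM; log2 fold changes 0.86, 1.74 and 3.49). Chrna5, a nicotinic receptor subunit, had 10.8, 21.6, 25.2 and 12.3 CPM against 8.48 ± 4.07 CPM in Tshz2 and Vwc2l nuclei (1.0, SE 0.28) and 0.672 ± 0.230 CPM in Cux2 nuclei (4.54, SE 0.26). Hcrtr2, an orexin receptor, was higher than in Cux2 nuclei (41.3 ± 15.8 against 2.38 ± 1.34 CPM; 4.22) and did not pass the test against the deep gates. Htr2a, an excitatory serotonin receptor, and Chrm2, a muscarinic receptor, were lower than in all 3 gates: Htr2a had 7.0, 14.9, 11.0 and 13 CPM against 127 ± 25.6, 25.1 ± 8.87 and 52.4 ± 6.16 CPM (-3.52, -1.04 and -2.23), and Chrm2 had log2 fold changes of -2.67, -2.73 and -1.20. Oprm1, the mu opioid receptor, was higher than in Tshz2 and Vwc2l (1.58) and Cux2 nuclei (1.75) and lower than in layer 6b nuclei (-0.45). Over the list of acetylcholine and monoamine receptors, 1 was higher and 3 lower of 7 counted against layer 6b (6.62% and 6.84% of all genes), 3 and 3 of 9 against Tshz2 and Vwc2l (14% and 14.7%), and 3 and 5 of 8 against Cux2 nuclei (17.2% and 17.5%). Peptide, adenosine and cannabinoid receptors split 1 and 1 of 6, 3 and 1 of 6, and 2 and 2 of 7 in the same order. Htr2a entered through the other gate alone in all 3 comparisons, as did the PACAP receptor gene Adcyap1r1 (-1.56, -2.01 and -1.97), while Chrna5 in the comparisons given and Hcrtr2 against Cux2 nuclei entered through corticothalamic nuclei alone.

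Of the potassium channel genes, 7 were higher and 15 lower of 27 against the upper layer gate (median -0.25), where 17.2% of all genes were higher and 17.5% lower. They split 10 and 7 of 26 against layer 6b (6.62% and 6.84%) and 11 and 10 of 27 against Tshz2 and Vwc2l nuclei (14% and 14.7%). Kcnip4, a protein that binds Kv4 channels, had 4084, 4511, 4689 and 4537 CPM, against 10455 ± 707 CPM in Tshz2 and Vwc2l nuclei (-1.19) and higher means in the other gates (-1.67 against layer 6b and -1.88 against Cux2 nuclei). Kcnab1, a beta subunit, had 49.3, 114, 58.8 and 69.5 CPM against 1470 ± 229 CPM in layer 6b nuclei (-4.41, SE 0.17), and was also below the other gates (-2.55 and -1.14). Kcnn2, a calcium-activated channel of the afterhyperpolarization, was higher than in each gate (1.44, 0.40 and 1.07). Kcnq5, an M-current channel, was higher than in layer 6b (1.37) and lower than in the others (-1.27 and -1.90).

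The list of sodium, calcium and related cation channels held 5 higher and 4 lower genes of 18 against layer 6b, 2 and 6 of 18 against Tshz2 and Vwc2l, and 5 and 6 of 18 against Cux2 nuclei, beside 6.62% and 6.84%, 14% and 14.7%, and 17.2% and 17.5% of all genes. Cacna2d3, an auxiliary calcium channel subunit, had 131, 271, 188 and 227 CPM, against 608 ± 91.8, 830 ± 164 and 1218 ± 155 CPM in layer 6b, Tshz2 and Vwc2l and Cux2 nuclei (-1.65, -2.00 and -2.66). Cacnb2 was also lower in all 3 comparisons (-1.16, -0.79 and -1.01).

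Genes of axon guidance, which long-range projection neurons use during wiring and keep expressing in the adult, moved both ways. Of the list, 12 were higher and 7 lower of 28 against layer 6b, 8 and 15 of 29 against Tshz2 and Vwc2l, and 11 and 15 of 28 against Cux2 nuclei (medians 0.38, -0.32 and -0.43). The shares of all genes higher and lower were 6.62% and 6.84%, 14% and 14.7%, and 17.2% and 17.5%. Ephb1 had 300, 390, 402 and 283 CPM, against 29.1 ± 28.8, 79.3 ± 18.2 and 104 ± 16.1 CPM (3.60, 2.14 and 1.68). Nrp1, a semaphorin and VEGF receptor, had 365, 374, 367 and 413 CPM and was higher than in each gate as well (1.95, 0.94 and 2.78), as was the semaphorin Sema6d (0.74, 0.73 and 1.19). The netrin receptor Unc5c had 176, 215, 138 and 190 CPM and was lower than in each (459 ± 70.8, 498 ± 82.7 and 521 ± 76.7 CPM; -1.39, -1.43 and -1.59), and so was Epha3 (-2.24, -1.08 and -1.69). Unc5d, its relative in upper layers, was lower than in Tshz2 and Vwc2l (-1.32) and Cux2 nuclei (-2.68). Dcc, the attractive netrin receptor, was higher than in layer 6b (0.62) and Cux2 nuclei (1.0) and lower than in Tshz2 and Vwc2l nuclei (-0.44).

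Cadherins, which join cells and synaptic partners, split both ways, with 7 higher and 7 lower of 17 against layer 6b, 8 and 8 of 19 against Tshz2 and Vwc2l, and 8 and 8 of 19 against Cux2 nuclei, where 6.62% and 6.84%, 14% and 14.7%, and 17.2% and 17.5% of all genes were. Cdh9 had 258, 310, 204 and 242 CPM against 23.4 ± 17.8, 75.3 ± 11.3 and 80.3 ± 29.9 CPM (3.37, 1.77 and 1.67). Cdh10 was lower in all 3 comparisons (-2.59, -1.10 and -1.82). Cdh18 had 3260, 2226, 3172 and 2568 CPM, which was above Cux2 nuclei (297 ± 56.1 CPM; 3.19) and Tshz2 and Vwc2l nuclei (0.97) and below layer 6b nuclei (-1.01).

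**Figure D3:**
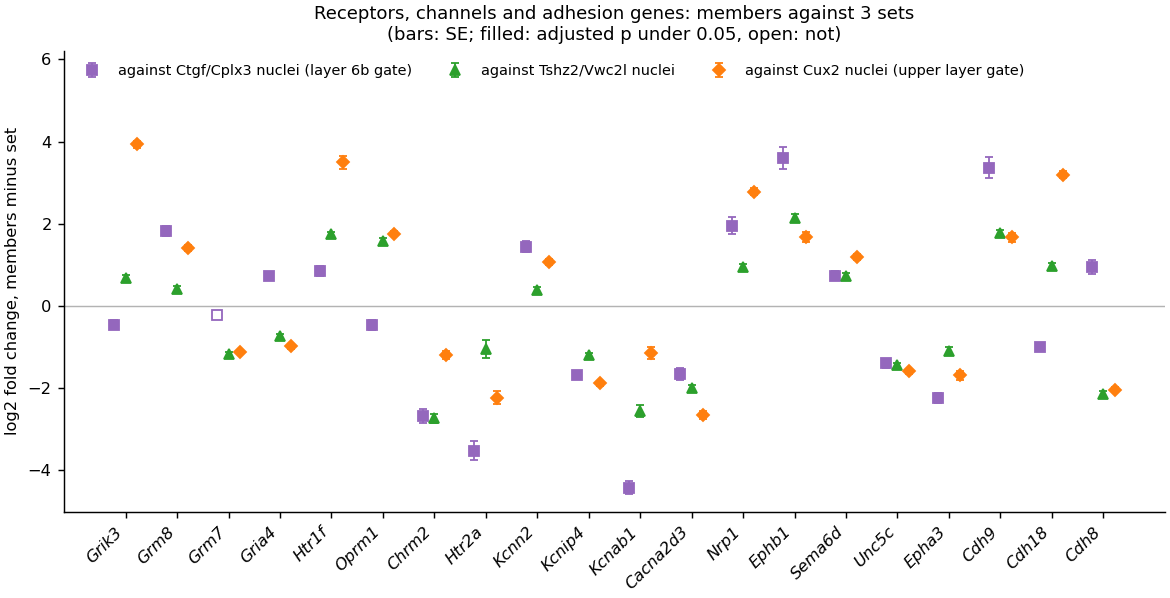
Log2 fold change of corticothalamic nuclei against the layer 6b, Tshz2 and Vwc2l, and Cux2 gates (vertical axis) for receptor, channel, guidance and cadherin genes, each the estimate of edgeR's quasi-likelihood fit over 4 libraries with its SE as a bar. Filled symbols passed an adjusted p of 0.05; Grm8, Htr1f, Kcnn2, Nrp1, Ephb1, Sema6d and Cdh9 lie above 0 against all 3 gates, and Chrm2, Htr2a, Kcnip4, Kcnab1, Cacna2d3, Unc5c and Epha3 lie below 0.

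Further lists are given beside the share of all genes called. Immediate early genes, induced by neuronal activity, were higher than in Tshz2 and Vwc2l nuclei in 3 of 5 cases and lower in 1, where 14% and 14.7% of all genes were. Against Cux2 nuclei 3 were higher and 0 lower of 9 (17.2% and 17.5%), and against layer 6b nuclei 0 of 8 were called by edgeR's adjusted p. Arc, which entered through corticothalamic nuclei alone, had 45.2, 23.9, 48.8 and 30.1 CPM against 14.0 ± 3.81 CPM in Tshz2 and Vwc2l nuclei (1.47, SE 0.18), Egr1 was higher by 1.01 and Homer1 by 0.97, while Bdnf, which entered through the other gate alone, had values of -0.49 and, against Cux2 nuclei, -1.97. Homer1 ranged from 394 to 936 CPM between libraries and was highest in HET replicate 1. Cytosolic ribosomal protein genes were higher than in Cux2 nuclei in 20 of 50 cases and lower in 0 (median 0.31), where 17.2% and 17.5% of all genes were. Against Tshz2 and Vwc2l nuclei 0 were higher and 2, Rps2 and Rpl11, lower of 49 (median -0.09; 14% and 14.7% of all genes), and against layer 6b nuclei 0 of 49 were called by edgeR's adjusted p. Cck, the cholecystokinin precursor, had 8.17, 22.9, 15.9 and 8.44 CPM and was lower than in Cux2 (-2.03) and Tshz2 and Vwc2l nuclei (-1.41). Il34, the CSF1R ligand made by neurons, had 16.3, 13.9, 10.54 and 13.2 CPM and was lower than in Cux2 (22.2 ± 2.33 CPM; -0.78) and layer 6b nuclei (29.6 ± 9.46 CPM; -1.16), and did not pass the test against Tshz2 and Vwc2l nuclei (-0.39, edgeR adjusted p = 0.076).

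Corticothalamic nuclei were not uniform. Nuclei were thinned to 5000 UMIs, which kept 302, 280, 313 and 355 of them, and genes were ranked by the ratio of variance to mean over nuclei, taking the lowest of the 4 libraries' ratios. The median gene stood at 0.965 of 7052. The 12 highest were Malat1 (38.9), Rbfox1 (14.7), Kcnip4 (10.496), Brinp3 (8.87), Lsamp (8.31), Lingo2 (8.18), Gm10635 (7.52), Hs6st3 (7.07), Lrp1b (7.06), Nkain2 (6.49), Mgat4c (6.27) and Sgcz (6.15). Brinp3, of the retinoic acid-inducible neural gene family, averaged 3.40, 4.30, 3.30 and 3.22 UMIs per nucleus.

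Brinp3 marked a subset. The following subsets were chosen after their values were seen and are described without a test. At 8 or more UMIs, 17.5%, 21.1%, 15.97% and 16.6% of nuclei counted as Brinp3-high, 221 of 1250 in all. Scrublet scores, which mark barcodes that resemble sums of nuclei, were high in 23.1% of them and in 15.45% of the rest, and 38 of them also belonged to the nuclei with 3 or more Unc5d UMIs. They carried more Ptchd4 (1.21 against 0.326 UMIs per nucleus), Ddo, which oxidizes D-aspartate (0.452 against 0.124), the latent TGF-beta binding protein gene Ltbp1 and Mettl24, and less Cpa6 (0.0679 against 0.737), Sulf1 (0.158 against 0.934), Cntnap4 (0.262 against 1.69) and Cdh13. Ptchd4 was higher in Brinp3-high nuclei of each library (1.13, 1.27, 1.0 and 1.41 against 0.321, 0.385, 0.205 and 0.392). So 3 of the genes that led the corticothalamic group as a whole, Cpa6, Sulf1 and Col12a1 (0.127 against 0.519), were low in this subset.

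Cdh13, a cadherin anchored to the membrane by lipid, marked another. With 3 or more UMIs it defined 18.2%, 16.8%, 15.7% and 19.2% of nuclei, 219 in all, of which 6 were also Brinp3-high and 11.4% had high Scrublet scores, against 17.9% of the rest. These nuclei carried more of the BMP receptor gene Bmpr1b (0.708 against 0.0834 UMIs), the AMPA receptor partner Shisa6 (0.813 against 0.104), the BMP antagonist Vwc2 (0.356 against 0.0369), the semaphorin receptor Nrp2 (0.388 against 0.0592) and the Wnt agonist Rspo2 (0.708 against 0.126), and less Brinp3 (0.909 against 4.08), Ptchd4 and Efna5. Bmpr1b stood at 0.618, 1.13, 0.449 and 0.676 UMIs in the Cdh13-high nuclei of the libraries and at 0.0850, 0.0901, 0.0568 and 0.101 in the rest. Both subsets thus recurred in all 4 libraries, and Brinp3 and Cdh13 were high in different nuclei.

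**Figure D4:**
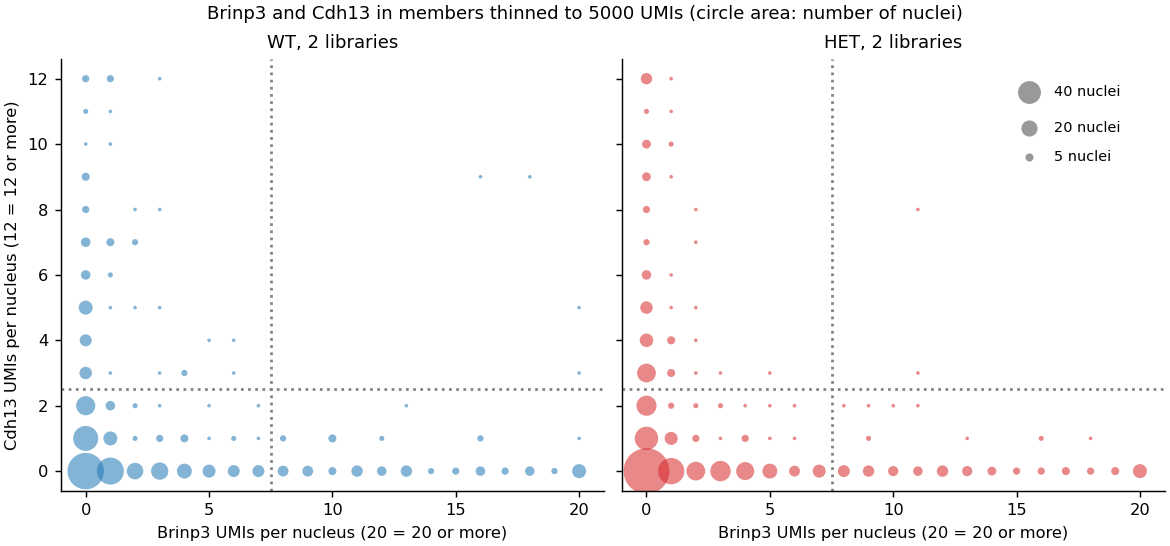
Brinp3 (horizontal axis) and Cdh13 (vertical axis) UMIs per corticothalamic nucleus after thinning to 5000 UMIs, in WT and in HET libraries, with circle area giving the number of nuclei and dotted lines the minimums of 8 and 3 UMIs. Nuclei spread along both axes, and 6 of 1250 lie past both minimums.

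Gm10635, a noncoding locus, was at 3 or more UMIs in 9.27%, 8.21%, 8.63% and 6.197% of nuclei (100 in all), of which 23 were Cdh13-high and 2 Brinp3-high. They had more of the neurexophilin Nxph2, Spon1 (2.32 against 0.640 UMIs), Hcrtr2 (0.580 against 0.169) and Sema5a (3.28 against 1.02). The netrin receptor gene Unc5d was at 3 or more in 8.28%, 12.1%, 8.63% and 11.3% (126 in all), with more of the upper layer genes Rorb (1.84 against 0.144) and Rasgrf2 (0.659 against 0.0507). Scrublet scores were high in 88.1% of the Unc5d nuclei and in 8.81% of the rest.

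Few genes passed a threshold between HET and WT corticothalamic nuclei. The study's threshold was an unadjusted p under 0.01 with detection in 10% of nuclei. Of 8168 genes tested by edgeR's quasi-likelihood test, 21 (0.257%) passed it, 20 of them (0.245%) lower and 1 (0.0122%) higher in HET. Where no gene differs, such a threshold passes a share of about 0.01, and fewer passed here. With 2 mice per genotype, the count shows neither that genes differ nor that few do. Of the 21, 12 were detected in 10% of nuclei of both genotypes, 8 lower ones (Dbi, Crot, Mt1, Unc13c, Sparc, Aldoc, Snx18 and Rps10) in WT alone and H6pd in HET alone. The smallest adjusted p was 1.0 by edgeR. The study used edgeR's likelihood-ratio test, by which 55 genes passed. None had an adjusted p under 0.05 by edgeR or by DESeq2, where 155 and 77 genes had an unadjusted p under 0.05 and DESeq2 passed 25 at 0.01. Without WT replicate 1, 170 genes passed (23 higher, 147 lower) and 27 had an adjusted p under 0.05, and without WT replicate 2, 88 passed (69 higher, 19 lower). Without HET replicate 2 there were 36 (14 higher, 22 lower) and without HET replicate 1 there were 18 (9 and 9). Of the 21 genes, 15 still passed without WT replicate 1, 4 without HET replicate 1 and 8 without HET replicate 2, and of the 18 that could be tested without WT replicate 2, 6 did. No tested value changed sign in these 4 settings. The WT and HET libraries of all 21 genes did not overlap, which largely fixed this.

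Most lists fixed for neuronal identity and signaling held no gene that passed, where 0.257% of all 8168 genes tested did. At that share a list of such a length would often hold none, so the counts say little about the lists. None of the 13 tested corticothalamic markers passed (9 positive and 4 negative, median log2 fold change 0.06, against 0.0045 over all genes), and none of 17 deep layer transcription factors did (median 0.04). Hs3st4 had a log2 fold change of -0.12 (SE 0.16), Zfpm2 of 0.04 (SE 0.17) and Tbr1 of 0.22 (SE 0.18). None of the 20 glutamate receptor, 13 GABA receptor, 27 potassium channel, 18 sodium, calcium and related cation channel and 19 cadherin genes tested passed either, with medians from -0.03 to 0.05. Axon guidance genes gave 1 lower of 30 (Sema6a), and inhibitory neuron markers 1 lower of 2 (Nxph1). Immediate early genes gave 0 of 10 and integrated stress response genes 0 of 8. At 2 mice per genotype these results measure only the spread between these mice.

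H6pd, an enzyme of the endoplasmic reticulum that makes NADPH, was the 1 gene higher in HET. WT libraries had 6.71 and 6.30 CPM of it, and HET libraries had 12.3 and 13 CPM (log2 fold change 0.97, SE 0.27), on 23, 19, 50 and 57 UMIs. The libraries did not overlap, which the rule for naming it required, and 9.4% of all genes did not overlap in that direction. The call was lost by DESeq2, without any 1 of the 4 libraries (0.89 to 1.08), with library totals alone, with the replicate block, and without nuclei of high Scrublet score, Unc5d nuclei or nuclei above 20000 UMIs (0.85, 0.89 and 0.92).

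The 4 lower genes with the smallest p were Shisa6, Kirrel3, Nxph1 and Unc13c. Shisa6, an AMPA receptor auxiliary subunit, was at 63.3 and 66.3 CPM in WT libraries and 35.0 and 39.4 CPM in HET libraries (-0.77, SE 0.15). Kirrel3, a synaptic adhesion molecule of the immunoglobulin family, had 154 and 210 CPM against 97.3 and 112 CPM (-0.77, SE 0.16), and its value was -1.39 without nuclei of high Scrublet score, -1.23 without Unc5d nuclei, -1.20 without nuclei above 20000 UMIs and -0.58 without WT replicate 2. The Kirrel3 call was lost without HET replicate 1 (-0.67) and after thinning to 5000 UMIs (-0.79). Without HET replicate 1 the calls of Shisa6 (-0.69) and Unc13c (-1.07) were lost too, and that of Shisa6 also at a Foxp2 minimum of 5 (-0.61) and after thinning (-0.99). Nxph1, a ligand of neurexins, had 79.9 and 68.3 CPM against 44.8 and 39.0 CPM (-0.80, SE 0.17). The Nxph1 call was lost without Unc5d nuclei (-0.44), without nuclei of high Scrublet score (-0.61), without HET replicate 2 (-0.73), at a Foxp2 minimum of 2 (-0.55) and after thinning to 5000 UMIs (-0.10). Unc13c, a vesicle priming factor, was at 33.5 and 58.1 CPM against 15.7 and 21.2 CPM (-1.27, SE 0.28). It could not be tested without WT replicate 2 or after thinning to 5000 UMIs. The same held without nuclei of high Scrublet score, Unc5d nuclei or nuclei above 20000 UMIs. WT and HET values of all 4 genes did not overlap, which the rule for naming them required. Of all genes tested, 15.2% did not overlap in that direction. Shisa6 was also among the genes that marked the Cdh13-high nuclei, whose share was 18.2% and 16.8% in WT and 15.7% and 19.2% in HET; within those nuclei it averaged 0.80, 1.02, 0.918 and 0.603 UMIs and in the remaining nuclei 0.142, 0.15, 0.0682 and 0.0662. Further down were the semaphorin Sema6a (-0.63, with the call lost without any 1 library), the growth factor Ptn (-0.57) and the collagen Col23a1 (-0.65). Dock10, a guanine nucleotide exchange factor that is also a hippocampal marker, had 32.7 and 65.4 CPM against 15.2 and 24.2 CPM (-1.26, and -0.75 with the call lost without WT replicate 2), beside hippocampal marker sums of 265, 349, 248 and 252 CPM, whose part was not tested. The remaining lower genes were Crot (-0.93), Tuba1a (-0.93), Snx18 (-0.92) and Sparc. The calls of Ptn, Col23a1, Crot, Tuba1a and Snx18 were lost by DESeq2, with the replicate block and without either HET library. That of Crot was also lost without either WT library. Those of Ptn and Tuba1a were lost without WT replicate 2, and those of Col23a1 and Snx18 without WT replicate 1. Sparc, a matrix protein gene, had 6.13 and 20.9 CPM in WT libraries against 3.68 and 1.37 CPM (-2.36), could not be tested without WT replicate 2, and stood at -3.21 without HET replicate 1 and at -1.83, with the call lost, without HET replicate 2. Nxph1 is also a marker of inhibitory neurons, whose 10 markers summed to 213, 237, 155 and 146 CPM in corticothalamic nuclei with none at 0 and Adarb2 most abundant; the part of such RNA in the Nxph1 result was not tested.

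Aldoc, a glycolytic enzyme of astrocytes, and the metallothionein Mt1, which binds zinc and copper, were also lower. Aldoc was at 11.1 and 28.9 CPM in WT libraries and 4.66 and 5.02 CPM in HET libraries (-1.98, SE 0.45). Mt1 had 11.1 and 33.5 CPM against 6.86 and 5.70 CPM (-1.77, SE 0.48), the acyl-CoA binding protein gene Dbi 9.92 and 23.6 CPM against 5.88 and 2.51 CPM (-1.95), and Fth1, the ferritin heavy chain, 55.1 and 156 CPM against 39.7 and 35.8 CPM (-1.43). WT replicate 2 was the highest library for each of these. Without it Aldoc still passed (-1.21), Mt1 (-0.84) and Fth1 (-0.57) did not, and Dbi could not be tested. The calls of Aldoc (-1.93), Mt1 (-1.90) and Fth1 (-1.51) were lost without HET replicate 1. Those of Mt1 (-1.66) and Dbi (-1.47) were lost without HET replicate 2. Apoe, a lipid carrier of astrocytes, had 24.5, 104, 23.8 and 21.4 CPM (-1.44, SE 0.54) and Mt3 14.6, 36.2, 16.4 and 12.3 CPM (-0.77). Neither passed by the quasi-likelihood test, and WT replicate 2 lay above the rest. Without WT replicate 2 they stood at -0.14 and -0.05, and without WT replicate 1 at -2.12 and -1.25. Apoe did pass by edgeR's likelihood-ratio test, which the study used, and after thinning to 5000 UMIs (-1.63). Mt2 fell under the detection filter with 4, 23, 2 and 2 UMIs, as did Csf1 with 9, 9, 17 and 11. Il34 did not pass (-0.33, SE 0.26). Astrocyte markers summed to 883, 847, 726 and 770 CPM (Slc1a2 most abundant, none of 10 at 0), oligodendrocyte markers to 91.3, 335, 114 and 67.5 CPM (Mbp most abundant, none of 9 at 0), microglia markers to 44.6, 82.3, 52.4 and 75.7 CPM (P2ry12 most abundant, none of 10 at 0), and endothelial and mural markers to 13.7, 11.9, 8.58 and 4.33 CPM. Their part in these results was not tested.

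Rps24, Rps29 and Rps10, subunits of the small ribosome, were the ribosomal genes that passed, 3 of 58 tested, beside 0.257% of all genes. Rps29 was at 26.5 and 56.4 CPM in WT libraries and 15.9 and 15.7 CPM in HET libraries (-1.34, SE 0.32), and Rps24 had 26.3 and 54.1 CPM against 16.2 and 14.8 CPM (-1.33). The 44 ribosomal protein genes detected in 10% of nuclei of both genotypes had negative log2 fold changes (median -0.80, against -0.00044 over all such genes), but 2 passed; of 58 tested, 13 had entered through WT alone. Their sum was 966 and 2168 CPM in WT libraries against 921 and 836 CPM in HET, so that WT replicate 1 lay much nearer to the HET libraries than to WT replicate 2. Without WT replicate 2 the median was -0.17, with 12 positive and 35 negative of 47, and Rps29 (-0.77), Rps24 (-0.79) and Rps10 (-0.87) did not pass. The calls of Rps29 (-1.35) and Rps24 (-1.39) were also lost without HET replicate 1, and that of Rps10 (-1.27) without HET replicate 2. The other Slc17a7 nuclei gave nearly the same sums (1013, 2219, 966 and 871 CPM). Nuclear-encoded respiratory chain genes showed 0 of 52 passing (median -0.18 over these and -0.22 over the 44 detected in both genotypes, and -0.0040 with 25 positive and 26 negative of 51 without WT replicate 2), beside 0.257% of all genes tested. Atp5l, a subunit of ATP synthase, did pass (-0.63). Its call was lost by DESeq2, with library totals alone, with the replicate block and without any 1 library (-0.55 to -0.71).

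**Figure D5:**
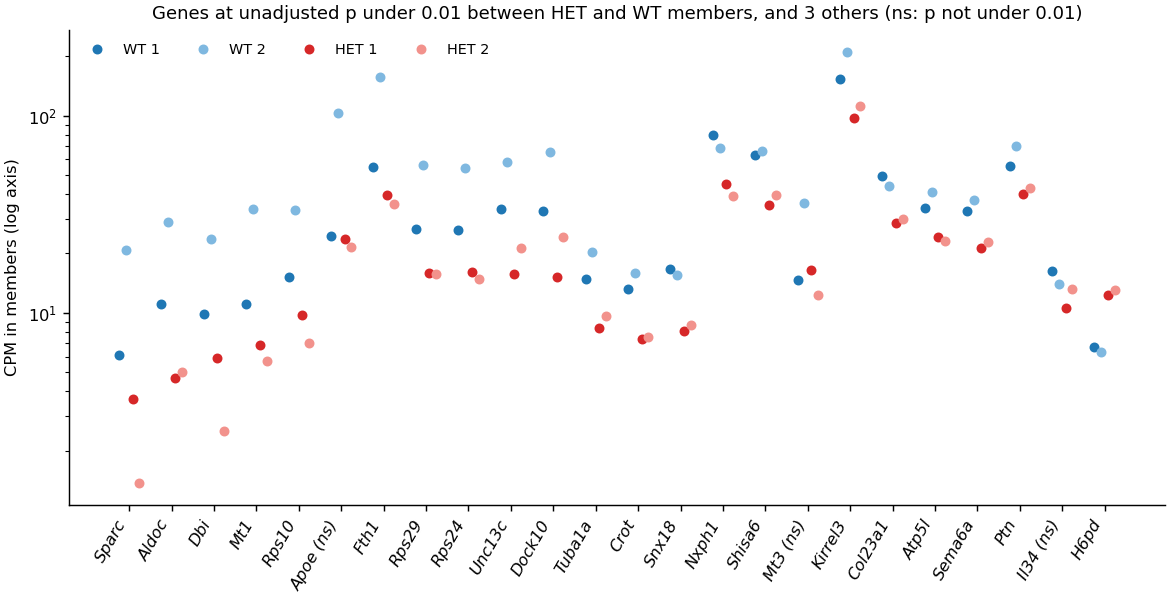
Level in corticothalamic nuclei (vertical axis, CPM on a log scale) of the genes past an unadjusted p of 0.01 between HET and WT by edgeR's quasi-likelihood test, and of Apoe, Mt3 and Il34, which did not pass it (ns), with 1 point for each library. H6pd is the only gene higher in HET; WT replicate 2 lies far above WT replicate 1 for Sparc, Aldoc, Dbi, Mt1, Apoe and Fth1 and close to it for Shisa6, Nxph1 and Snx18.

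The genotype difference in corticothalamic nuclei was also set against that in the other Slc17a7 nuclei of the same libraries. Of 8495 genes, 110 (1.29%) had an unadjusted p under 0.01 for the interaction by edgeR, 72 positive and 38 negative, and 0 had an adjusted p under 0.05 (473 at an unadjusted p under 0.05; 1 by DESeq2). The smallest p belonged to Il1rapl2, a synaptic receptor-like protein gene, with 141, 167, 123 and 82.5 CPM in corticothalamic nuclei and 478, 454, 579 and 495 CPM in the others (-0.81, SE 0.12, edgeR adjusted p = 0.0545). Its side of the threshold changed with the setting. Unc13c (-1.03, SE 0.20) and Nxph1 (-0.70, SE 0.17) did not pass (adjusted p = 0.31 and 0.50 by edgeR), with 63.5, 66.5, 49.8 and 58.2 CPM of Unc13c and 103, 126, 94.7 and 112 CPM of Nxph1 in the other nuclei. None of the lists had a gene with an adjusted p under 0.05 for the interaction by edgeR.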

How the data were processed

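The deposited files held UMI counts for each gene and nucleus, which the authors made with Cell Ranger 5.0.0 on build mm10 (submitters' processing notes and file headers), without further normalization. They held 16415, 16301, 9905 and 11369 nuclei. Kept nuclei had between 500 and 50000 UMIs, over 200 detected genes and a mitochondrial share below 5%. Groups came from the labels, and a further library per genotype was not used here. Counts were summed per library and gate. HET against WT, the gates against each other and the interaction were tested with edgeR 4.0.16 (quasi-likelihood, TMM, at least 10 counts, detection in 10% of nuclei of either group, gate genes left out, library as block for comparisons within libraries) and Benjamini-Hochberg adjustment. The study's rule, an unadjusted p under 0.01, was also counted for genotype. Shares were tested by exact permutation. Libraries differed beyond sampling noise (chi-square per degree of freedom 3.43 to 7.19).

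Named genes were, for genotype, the 10 with the smallest p in each direction past that rule without overlap, with Mt1, Mt2, Mt3, Il34, Csf1, Apoe and Aldoc; for each gate, the 8 largest changes in each direction at 50 CPM or more in the higher set and in the same direction in 4 libraries; and listed genes. Members and lists were chosen with earlier results of these data known. Alternatives were DESeq2 1.42.0, edgeR's likelihood-ratio test, other scaling, no detection filter, other Foxp2 minimums, a Hs3st4 requirement, thinning to 5000 UMIs, each library left out, a replicate block and, as an alternative to keeping all nuclei, leaving out nuclei with high Scrublet scores (expected doublets 0.8% per 1000 nuclei); leaving out Unc5d nuclei was added after seeing the data. Results for some genes are not reported here. The tests were run first on simulated data. R 4.3.3, limma 3.58.1, Python 3.11.15, scanpy 1.11.5, scipy 1.17.1 and matplotlib 3.10.9 were used.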

Additional observations from a re-analysis of the deposited data

Results flagged for a closer look

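Csf1r fell below the detection filter in corticothalamic nuclei and entered no comparison, and it is given here because its count there was higher in HET than in WT libraries. Its UMIs numbered 4 and 7 in WT and 23 and 17 in HET libraries, 11 against 40 in all, in 0.888% and 1.39% of the nuclei of WT libraries against 6.91% and 4.29%. Without the filter edgeR gave a log2 fold change of 1.49 (edgeR adjusted p = 1.0). The other Slc17a7 nuclei had Csf1r in 0.607%, 1.62%, 4.62% and 4.29%, and nuclei with Gad1 or Gad2 and without Slc17a7 in 1.52%, 2.29%, 4.68% and 4.15%. All 3 sets of neurons had higher shares in both HET than in both WT libraries, and in HET replicate 1 the corticothalamic share was above the other 2. These shares were not matched for depth. The nuclei with Gad1 or Gad2 had a median of 4785, 4295, 5799.5 and 5623.5 UMIs. By CPM, Csf1r stood at 1.17, 2.32, 5.64 and 3.88 in corticothalamic nuclei and at 0.790, 3.18, 4.38 and 4.66 in the other Slc17a7 nuclei. In nuclei with microglia genes Csf1r was lower in HET (236, 221, 163 and 107 CPM). The other 9 microglia markers summed to 43.5, 80.0, 46.8 and 71.8 CPM in corticothalamic nuclei, and their part in the result was not tested.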

How the results depend on the processing

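All 48 cases of a gene named against the layer 6b, Tshz2 and Vwc2l, and Cux2 gates kept their direction and their side of the threshold in every setting tried. They had been picked as large changes of the same direction in 4 libraries, so that this was largely fixed by the choice. Most had entered through the gate where they were higher alone. Each of the 21 genes that passed for genotype lost its call in at least 1 setting, and none changed sign where tested. Their WT and HET libraries did not overlap, so the sign was largely fixed when a library was left out. The 21 genes past an unadjusted p of 0.01 became 84 with no detection filter, 55 by edgeR's likelihood-ratio test, which the study used, 12 with library totals alone and 36 after thinning to 5000 UMIs, and from 18 to 170 when a library was left out (the lone library of its genotype was then assumed to vary like the others), with 0 to 27 past an adjusted p of 0.05 by edgeR. The 110 interaction genes became 20 by DESeq2, 317 with no filter and from 94 to 253 without a library; past an adjusted p of 0.05 there were 1 by DESeq2, 40 with no filter and 0 to 69 without a library. Against Tshz2 and Vwc2l nuclei DESeq2 called 1581 genes and a fit with no library block 1598, in place of 2514, and against Cux2 nuclei DESeq2 called 2082 and no library block 2164, in place of 3241. The share of corticothalamic nuclei was reversed by thinning to 5000 UMIs, from 1.19 to -0.378 percentage points. With the replicate block 26 genes passed for genotype, 13 of them among the 21; the libraries of 1 number did not deviate together (r from -0.027 to 0.027 over 11277 genes), so they share only a number. Rare genes are limited by depth, since members held 3014296 to 4385569 UMIs per library.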
